A study of Mus musculus with 4 samples.

Results

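The subject is 8 genes of the complexes that methylate lysine 4 of histone H3 (H3K4), chosen by name, of which 7 were measured here among 20299 genes: Mll1, Wbp7, Setd1a, Ash2l, Wdr5, Rbbp5 and Dpy30. The other named gene, Setd1b, was not analysed here. Gene-level RNA signal was available for 4 sorted fractions of the gonads of mouse fetuses aged 15.5 days post coitum (dpc), with 1 library each: male germ cells, female germ cells, male gonadal somatic cells and female gonadal somatic cells. All fetuses came from CF1 mothers and TgOG2 fathers and carried that transgene background, in which the Oct4 (Pou5f1) promoter drives EGFP in germ cells. GFP-positive cells were the germ fractions, and GFP-negative cells, which hold every other gonadal cell type, the somatic fractions. The labels name no pooling of animals and no separate animals per library. A p-value here thus reflects only how these 4 libraries vary, which may be technical and also includes differences between the sexes. In male germ cells of this age DNA is about to be methylated anew, while those of the female have entered meiotic prophase; the series title links the methylation pattern in the male to H3K4 methylation.

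H3K4 methyltransferases of the MLL and SET1 families share one plan. A large protein with a catalytic SET domain sits on a core of WDR5, RBBP5, ASH2L and DPY30, called WRAD, which the enzymes need for full activity. MLL1 acts at promoters of developmental regulators such as Hox genes, the Wbp7 product (now KMT2B, MLL2 in part of the mouse literature) methylates H3K4 at CpG-rich promoters and is needed in oocytes, and SETD1A and SETD1B make much of the trimethylated H3K4 at active promoters. H3K4 methylation keeps de novo DNA methyltransferases off chromatin, which is why these genes are of interest in fetal germ cells.

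All 7 genes gave signal in all 4 libraries. Levels are given as scaled signal per 1000000 (SPM), a library's signal for a gene divided by its adjusted total. SPM compares libraries for 1 gene. For comparisons between genes SPM was divided by the listed length in kb. Signals were deposited as scaled values. The spacing of low values put depth at 17.6 to 25.0 M fragments (M stands for 1000000), so that the 7 genes rested on 315 to 12114 fragments per library. Intervals below are 95% counting intervals from these estimated fragments and do not cover differences between animals or preparations. Germ cell markers summed to 5502 SPM (male) and 3744 SPM (female) in the germ libraries, and to 35.02 SPM (male) and 11.3 SPM (female) in the somatic libraries. Pou5f1, whose promoter drives the reporter, had 497 SPM (male) and 34.5 SPM (female) in germ cells and at most 4.75 SPM in somatic cells. Male germ cells held more signal of stromal, erythroid, Sertoli and fetal Leydig markers than female germ cells (sums of 208, 291, 51.4 and 62.8 SPM against 59.6, 92.4, 11.4 and 11.5), and slightly less of pregranulosa markers (26.4 against 30.4 SPM). Of the Sertoli sum in male germ cells 36.3 SPM came from Dmrt1, a gene that germ cells also express and that was lower in male somatic cells (16.4 SPM), and the other 4 Sertoli markers summed to 15.2 SPM (male) and 2.91 SPM (female) in germ cells. In male somatic cells the stromal, erythroid, Sertoli and fetal Leydig sums were 15967, 30205, 420.1 and 805 SPM. All 6 erythroid markers were at 1 SPM or more in both somatic libraries, so those fractions included red blood cells.

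In mm9, as the files list them, Mll1 lies on chromosome 9 from 44611437 to 44689357 (minus strand, listed length 16475 bases), Wbp7 on chromosome 7 from 31353873 to 31373745 (minus, 8494 bases) and Setd1a on chromosome 7 from 134920902 to 134943633 (plus, 5950 bases). Ash2l lies on chromosome 8 from 26927341 to 26958142 (minus, 2534 bases), Wdr5 on chromosome 2 from 27370666 to 27392055 (plus, 2914 bases), Rbbp5 on chromosome 1 from 134373943 to 134402242 (plus, 3646 bases) and Dpy30 on chromosome 17 from 74698813 to 74723284 (minus, 1114 bases). Mll1 was the only one of the 7 inside another listed span, that of Cdkn2d on the same strand, which the files stretch over most of chromosome 9 (21092907 to 123839607).

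The 3 SET domain genes and the 4 WRAD genes differed in which germ library was the higher one, and promoter sequence is shown for 2 of each kind. The RefSeq promoter table (GRCm38.p6, a later build than the mm9 of the files) matched 5 of the 7 genes, with Mll1 under its current symbol Kmt2a and Dpy30 with 4 start sites. Each line gives the 250 bases before the start site, 5′ to 3′ on the gene's strand, with every CG dinucleotide in capitals, since the CXXC domains of MLL1, of the Wbp7 product and of the SET1 partner CXXC1 bind unmethylated CpG. The positions are chr9:44881290-44881539 (minus) for Mll1, chr7:127777139-127777388 (plus) for Setd1a, chr2:27514897-27515146 (plus) for Wdr5 and chr1:132477117-132477366 (plus) for Rbbp5.
Mll1: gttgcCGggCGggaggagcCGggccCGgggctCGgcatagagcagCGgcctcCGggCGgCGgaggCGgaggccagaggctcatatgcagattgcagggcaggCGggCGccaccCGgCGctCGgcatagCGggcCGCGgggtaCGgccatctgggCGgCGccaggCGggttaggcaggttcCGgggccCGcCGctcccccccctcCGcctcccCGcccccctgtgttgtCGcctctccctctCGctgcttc
Setd1a: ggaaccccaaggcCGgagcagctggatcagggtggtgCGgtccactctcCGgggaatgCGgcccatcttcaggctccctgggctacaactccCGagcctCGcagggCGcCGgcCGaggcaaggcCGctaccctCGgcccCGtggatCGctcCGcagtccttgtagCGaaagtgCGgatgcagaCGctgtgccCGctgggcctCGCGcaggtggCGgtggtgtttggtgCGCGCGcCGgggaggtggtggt
Wdr5: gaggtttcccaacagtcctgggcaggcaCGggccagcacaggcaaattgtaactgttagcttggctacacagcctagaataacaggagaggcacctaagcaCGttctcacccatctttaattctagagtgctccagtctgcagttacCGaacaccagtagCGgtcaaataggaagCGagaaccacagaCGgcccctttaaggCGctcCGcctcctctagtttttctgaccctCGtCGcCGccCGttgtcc
Rbbp5: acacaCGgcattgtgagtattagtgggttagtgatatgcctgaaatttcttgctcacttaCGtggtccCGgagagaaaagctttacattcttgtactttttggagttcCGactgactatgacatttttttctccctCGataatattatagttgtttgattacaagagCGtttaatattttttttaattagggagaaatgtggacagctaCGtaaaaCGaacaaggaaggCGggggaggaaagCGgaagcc
The window held 29 CG dinucleotides for Mll1 and 25 for Setd1a, more than 93.2% and 89.3% of the 32851 table entries, whose median was 6. Wdr5 had 12 and Rbbp5 10, above 66.5% and 62.2% of entries. The 4 Dpy30 entries held 1, 21, 28 and 34, above 7.87%, 83.7%, 92.4% and 96.5% of entries. The number of CG thus did not separate the SET domain genes from the WRAD genes. A search on both strands for the GC box (GGGCGG) found 4 matches before Mll1 and 1 before Wdr5, where 32.7% of all entries held at least 1. No match was found in the 4 printed windows for the CCAAT box (CCAAT, in 33.8% of entries), the ETS motif (CCGGAAG, 6.91%), the E-box (CACGTG, 6.02%), the YY1 motif (AANATGGC, 3.91%) or the STRA8 motif (CNCCTCAG, 6.42%). A match is a run of letters and not a bound site, and no match concerns this window alone.

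Among the catalytic genes, Mll1 had 109 SPM (male) and 212 SPM (female) in germ cells, with 172 SPM (male) and 131 SPM (female) in somatic cells. Its highest library was thus the female germ cells and its lowest the male germ cells, with both somatic libraries in between. Wbp7 had 93.2 SPM (male) and 158 SPM (female) in germ cells, with 83.0 SPM (male) and 66.9 SPM (female) in somatic cells. Female germ cells stood apart on the high side, and the other 3 libraries lay between 66.9 and 93.2 SPM. Setd1a had 116 SPM (male) and 209 SPM (female) in germ cells, with 64.1 SPM (male) and 61.2 SPM (female) in somatic cells. Here both germ libraries lay above both somatic libraries, and the somatic pair did not differ beyond counting error (ratio 1.05, interval 0.968 to 1.13).

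Of the WRAD core, Wdr5, whose product is the WD-repeat subunit that holds the SET domain protein, had 453 SPM (male) and 313 SPM (female) in germ cells, with 111 SPM (male) and 104 SPM (female) in somatic cells. Both germ libraries were well above both somatic ones. Ash2l, whose product forms with RBBP5 the pair that activates the SET domain, had 406 SPM (male) and 147 SPM (female) in germ cells, with 118 SPM (male) and 86.1 SPM (female) in somatic cells. Its male germ library stood alone at the top. Rbbp5 varied least of the 7 genes, with germ cells at 101 SPM (male) and 79.4 SPM (female) and somatic cells at 68.8 SPM (male) and 67.5 SPM (female), a range of 1.497-fold, and its somatic pair did not differ beyond counting error (ratio 1.02, 0.945 to 1.10). Dpy30, the small subunit that docks on ASH2L, had 39.4 SPM (male) and 18.7 SPM (female) in germ cells, with 23.2 SPM (male) and 26.6 SPM (female) in somatic cells. For Dpy30 the germ libraries were the highest and the lowest of the 4. Every other neighbouring pair of libraries in these 7 orders differed beyond counting error. The highest library was the female germ cells for 3 of the 7 genes and the male germ cells for the other 4, where 30.6% and 24.3% of all genes tested peaked.

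**Figure D1:**
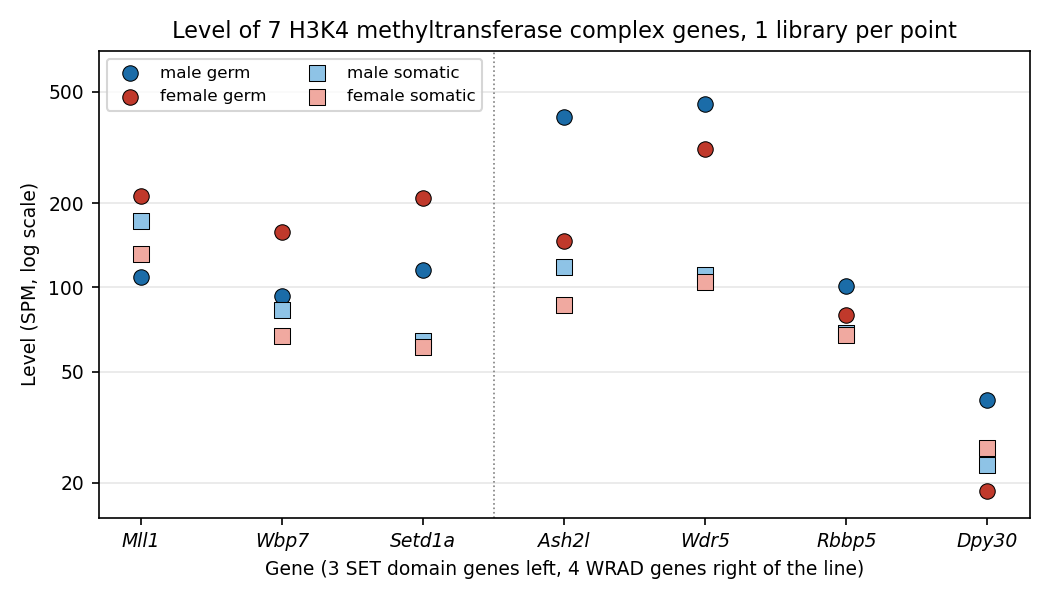
Level of each of the 7 genes (SPM, log axis) in the 4 libraries, 1 point per library, circles for germ and squares for somatic cells. Female germ cells are highest for the 3 SET domain genes left of the line (158 to 212 SPM), and male germ cells are highest for the 4 WRAD genes right of it (39.4 to 453 SPM).

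The germ cells of the sexes were compared because the series is about DNA methylation in the male germ line. The 3 SET domain genes were higher in female germ cells and the 4 WRAD genes higher in male germ cells. The female excess was 1.94-fold for Mll1 (1.85 to 2.04), 1.80-fold for Setd1a (1.72 to 1.89) and 1.70-fold for Wbp7 (1.61 to 1.79). In the other direction Ash2l was 2.77-fold higher in male germ cells (2.65 to 2.89), Dpy30 2.11-fold (1.86 to 2.40), Wdr5 1.45-fold (1.401 to 1.495) and Rbbp5 1.27-fold (1.19 to 1.36). With 1 library against 1 there is no replicate check and no p-value. At 1.5-fold or more, 3 of 7 genes were higher in female germ cells, where 34% of 14739 genes were, and 2 of 7 in male germ cells, where 39.1% were. At 2-fold or more, 2 of 7 were higher in male germ cells (31.7% of all genes) and none in female germ cells (24.2%). The members' median log2 ratio of male to female germ cells was 0.35, against -0.01 over all genes tested. As the 7 genes split into 3 below 0 and 4 above, that median is the value of Rbbp5 and describes no shared lean. Under upper-quartile scaling, which moved the median of all genes by 0.28 on the log2 scale, the 3 SET domain genes stayed higher in female germ cells (male over female 0.625, 0.714 and 0.672 for Mll1, Wbp7 and Setd1a), but only Mll1 by 1.5-fold, and all 4 WRAD genes were then at least 1.5-fold higher in male germ cells. Which of the 7 were the higher in which germ library was the same under all 4 scalings tried. The extra somatic marker signal of the male germ library moved with this comparison, and its part in the differences was not tested.

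Male and female somatic cells differed less. Ash2l was 1.37-fold higher in male somatic cells (1.29 to 1.45), Mll1 1.31-fold (1.25 to 1.38) and Wbp7 1.24-fold (1.16 to 1.33). Dpy30 was 1.15-fold higher in female somatic cells (1.01 to 1.31). Wdr5 was 1.06-fold higher in male somatic cells (1.001 to 1.13), and this turned to 0.971 with library totals in place of adjusted totals. None of the 7 reached 1.5-fold in either direction, where 19.6% of 13896 genes did towards the male and 17.8% towards the female library. Mll1 and Wbp7 were therefore female-higher in germ cells and male-higher in somatic cells, and Dpy30 the reverse. Opposite directions of any size were found in 48.4% of all genes tested. By that looser rule Setd1a counts as well, since it was 1.05-fold higher in male somatic cells, though not beyond counting error. The difference between the cell types could not be tested with these 4 libraries. Somatic fractions are mixtures that differ between the sexes (Sertoli marker sum 420.1 SPM in the male and 17.95 in the female, pregranulosa marker sum 106 and 989), so that a change in level per cell and a change in the share of a cell type cannot be told apart.

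**Figure D2:**
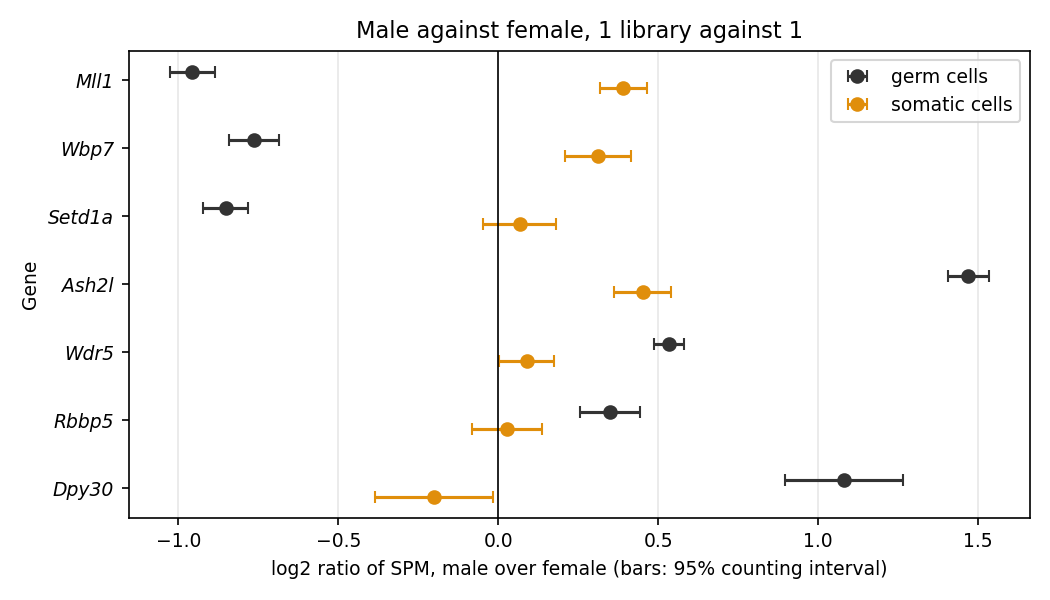
log2 ratio of SPM, male over female, for each gene in germ cells (dark points) and somatic cells (orange points), 1 library against 1, with 95% counting intervals as bars. The germ cell points split into the SET domain genes at -0.96 to -0.76 and the WRAD genes at 0.35 to 1.47, while the somatic points all lie between -0.20 and 0.45.

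A limma fit across all 14148 genes tested, with cell type as a term, asked for a sex difference shared by germ and somatic cells. None of the 7 genes passed (limma, Benjamini-Hochberg adjusted p from 0.887 to 0.998), and none had an unadjusted p under 0.05. The background was small as well, with 19 genes (0.134%) passing, all higher in males. The estimates ran from -0.39 ± 0.63 (SE) for Setd1a to 0.96 ± 0.61 for Ash2l on the log2 scale, with 1 residual degree of freedom.

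Germ cells were set against somatic cells with the male and the female library as the 2 samples of each cell type. The difference between the sexes within a cell type therefore served as the error of this fit. Wdr5 had the largest difference, 1.81 ± 0.39 (SE) on the log2(SPM + 0.5) scale, followed by Setd1a at 1.31 ± 0.46, Ash2l at 1.27 ± 0.60 and Wbp7 at 0.70 ± 0.45. Rbbp5 had 0.39 ± 0.40, Dpy30 0.13 ± 0.60 and Mll1 0.01 ± 0.48. None of the 7 genes passed at an adjusted p under 0.05, whereas 8.06% of the 14148 genes did, 2.5% as higher and 5.56% as lower in germ cells. Wdr5 came nearest (limma adjusted p = 0.0553), and Setd1a had an adjusted p of 0.129. At an unadjusted p under 0.05 there were 2 of 7, Wdr5 and Setd1a. The share of all genes under that limit was not counted. Such numbers, here and for the gene lists below, therefore cannot be read as an excess. With sex as a term, which sets germ against somatic cells within each sex, Wdr5 passed at the same estimate with an SE of 0.60 (limma adjusted p = 0.0314), where 7.73% of all genes did so as higher in germ cells. That fit leaves 1 residual degree of freedom, so the SE of any gene in it rests largely on the variance limma borrows from all genes. Mll1, whose germ-somatic difference ran in opposite directions in the sexes, had nearly the same SE (0.62). The same limit holds for each gene below that passed with sex as a term. Over the alternatives the adjusted p of the lowest member ran from 0.0314 to 0.388. Wdr5 also passed without the male germ library (adjusted p = 0.0393) and without the female germ library (0.0482), and Setd1a without the male germ library (0.0387); these fits assume that the lone germ library varies like the somatic ones.

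Both germ libraries lay above both somatic libraries for 5 of the 7 genes (Wbp7, Setd1a, Ash2l, Wdr5 and Rbbp5), under each of the 4 scalings, and below them for none. Over all genes tested 28.5% lay above and 33.8% below. The members' median log2 ratio was 0.70, against -0.11 over all genes. The 2 exceptions differed between the sexes. Mll1 was 1.58-fold lower in male germ than in male somatic cells (1.5003 to 1.66) and 1.61-fold higher in female germ than in female somatic cells (1.53 to 1.69). Dpy30 was 1.70-fold higher in male germ than in male somatic cells (1.51 to 1.92) and 1.43-fold lower in female germ than in female somatic cells (1.25 to 1.64). Within males, Wdr5 was 4.09-fold higher (3.89 to 4.30) and Ash2l 3.45-fold higher (3.29 to 3.62) in germ cells. Within females the order was another, with Setd1a at 3.41-fold (3.21 to 3.63), Wdr5 at 3.01-fold (2.87 to 3.15) and Wbp7 at 2.37-fold (2.23 to 2.52). At 1.5-fold or more, 4 of 7 genes were germ-higher in males and 5 of 7 in females, where 36% and 36.2% of all genes were. In the other direction it was 1 of 7 in males, Mll1, and none in females, where 38.7% and 41.1% of all genes were; under the other 3 scalings Mll1 kept this direction in males but fell short of 1.5-fold. Red blood cell and stromal markers summed to 30205 and 15967 SPM in male somatic cells, and to 11176 and 5949 SPM in female somatic cells. The part of these cell types in the differences was not tested.

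**Figure D3:**
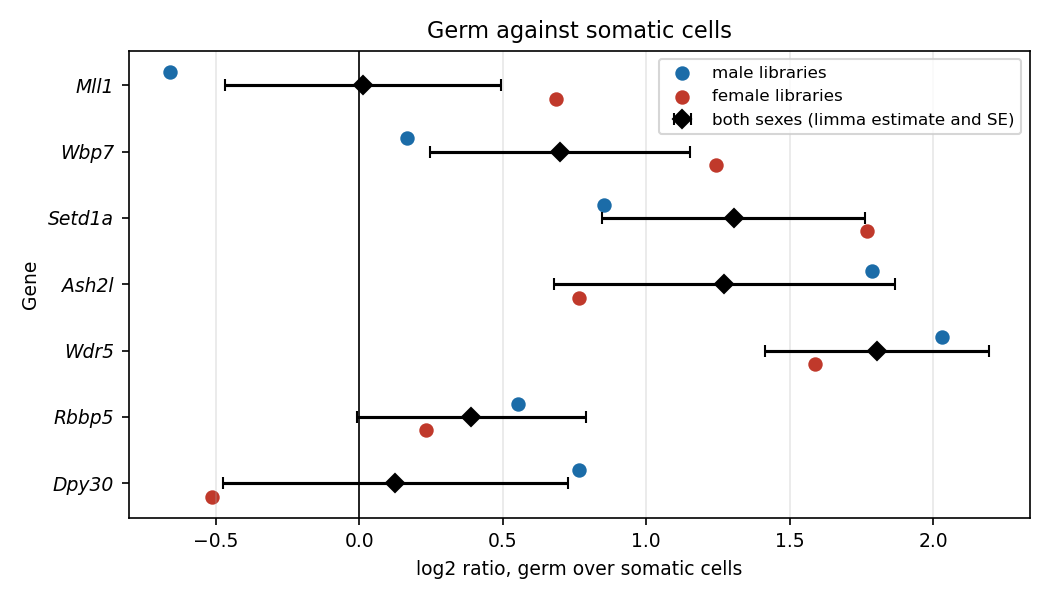
log2 ratio of germ over somatic cells for each gene, as the limma estimate over both sexes with its SE (black diamonds) and within the male (blue) and female (red) libraries. Wdr5 lies highest at 1.81 ± 0.39, and for Mll1 and Dpy30 the male and female points fall on opposite sides of 0.

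Per kb of listed length the WRAD genes stood above the catalytic genes in every library except in female germ cells, where Rbbp5 lay below Setd1a, and Dpy30 below Setd1a and Wbp7. Ash2l reached 160.3 and Wdr5 155 SPM per kb in male germ cells, each above 98.5% of all genes in that library. In the same library Dpy30 had 35.4, Rbbp5 27.7, Setd1a 19.4, Wbp7 10.97 and Mll1 6.62 SPM per kb. In female germ cells Wdr5 led with 107 SPM per kb, followed by Ash2l at 57.9, Setd1a at 35.1, Rbbp5 at 21.8, Wbp7 at 18.6, Dpy30 at 16.7 and Mll1 at 12.8. In male somatic cells the 3 catalytic genes were nearly level, at 10.8 for Setd1a, 10.5 for Mll1 and 9.77 SPM per kb for Wbp7. In female somatic cells they stood at 10.3, 7.98 and 7.87. Listed lengths need not match the isoforms used in these cells, which does not affect how a ratio between 2 genes differs between libraries.

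Ratios within a library do not depend on how libraries are scaled. The summed level per kb of the 4 WRAD genes over that of the 3 SET domain genes was 10.2 (male) and 3.06 (female) in germ cells, and 4.004 (male) and 4.29 (female) in somatic cells. Male germ cells had the highest of the 4 ratios and female germ cells the lowest. The ratio was 3.34-fold higher in male than in female germ cells, and 0.933 times as high in male as in female somatic cells. With geometric means, which keep the strong genes from setting the sum, the ratios were 6.27, 1.91, 2.79 and 3.13 in the same order. Leaving out any 1 WRAD gene kept male germ cells highest and female germ cells lowest, and gave a male-to-female germ difference of 2.69-fold (without Ash2l) to 4.16-fold (without Wdr5). The direction of that germ difference could not change, because each of the 4 WRAD genes was male-higher and each of the 3 SET domain genes female-higher. No SET domain gene was left out. Without Wdr5 the ratio in female germ cells was 1.45, against 2.78 (male) and 2.92 (female) in somatic cells, so that the female germ library lay farther below the somatic pair than with all 4 genes. These sums were formed after the values had been seen and carry no test.

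Within the WRAD core the balance also differed. Ash2l over Rbbp5, the activating pair, was 5.78 (male) and 2.66 (female) in germ cells per kb, and 2.46 (male) and 1.84 (female) in somatic cells, so that male germ cells had 2.17 times the female germ ratio (Wald 95% counting interval 2.01 to 2.35). Wdr5 over Rbbp5 instead set germ cells apart from somatic cells, at 5.60 (male) and 4.93 (female) in germ cells, with 2.01 (male) and 1.93 (female) in somatic cells. Dpy30 over Rbbp5 was 1.28 in male germ and 0.769 in female germ cells, with 1.10 (male) and 1.29 (female) in somatic cells. Between the catalytic genes, Setd1a over Mll1 was 2.94 (male) and 2.73 (female) in germ cells, with 1.03 (male) and 1.29 (female) in somatic cells, and Mll1 over Wbp7 was 0.603 and 0.689 in germ cells and 1.07 and 1.01 in somatic cells, in the same order. In these ratios between catalytic genes the germ libraries thus resembled each other more than either resembled the somatic libraries. By level this did not hold for Mll1, whose germ libraries were the highest and the lowest.

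**Figure D4:**
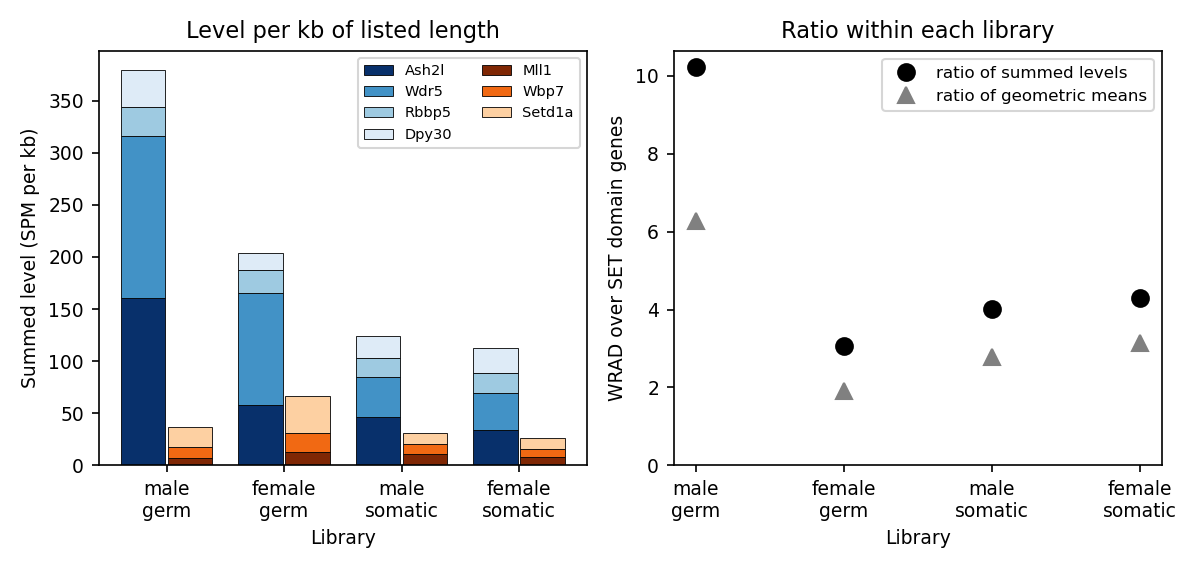
Left, summed level per kb of listed length (SPM per kb) in each library, stacked by gene, with WRAD genes in blue and SET domain genes in orange. Right, the ratio of the WRAD genes to the SET domain genes within each library from summed levels (circles) and geometric means (triangles), which is highest in male germ cells at 10.2 and 6.27.

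Of 15 other subunits of the MLL and SET1 complexes, none passed limma in germ against somatic cells (4 had an unadjusted p under 0.05), and none in the sex comparison (1 under 0.05). With sex as a term 1 of the 15 passed in germ against somatic cells, Wdr5b, which was lower in germ cells (limma adjusted p = 0.0246). In germ cells 6 of the 15 reached 2-fold or more towards the female library and none towards the male, where 24.2% and 31.7% of all genes were, with a median log2 ratio of male to female of -0.84. The 6 included Mll3, the catalytic gene of the branch that marks enhancers, with 477 SPM (male) and 1636 SPM (female) in germ cells, 3.43-fold higher in the female (3.36 to 3.50). They also included 2 further genes of that branch: Ncoa6, a nuclear receptor coactivator, was 3.24-fold higher (2.96 to 3.55) and the X-linked H3K27 demethylase gene Kdm6a 7.04-fold higher (6.58 to 7.53). Kdm6a was not female-higher in germ cells alone. With 52.8 SPM (male) and 138 SPM (female), it was the 1 subunit of the 15 that reached 2-fold towards the female library in somatic cells. The other catalytic gene of that branch, Mll2 (Kmt2d in current naming, and not the Wbp7 gene), did not share this direction: it had 103 SPM (male) and 93.8 SPM (female) in germ cells, 1.10-fold higher in the male (1.04 to 1.17), with 211 SPM (male) and 216 SPM (female) in somatic cells. Men1, which encodes menin, the partner of MLL1 and the Wbp7 product, had 45.4 SPM (male) and 121 SPM (female) in germ cells, 2.66-fold higher in the female (2.48 to 2.86). The SET1-associated gene Bod1l was 4.34-fold (4.15 to 4.54) and the host cell factor gene Hcfc2 2.76-fold (2.52 to 3.04) higher in the female library. Also higher in the male library, and like Mll2 named after its values were seen, Cxxc1, the CpG-binding subunit of the SET1 complexes, had 131 SPM (male) and 68.8 SPM (female) in germ cells, 1.91-fold higher in the male (1.78 to 2.04). Wdr5b, an intronless relative of Wdr5, had 3.22 SPM (male) and 2.45 SPM (female) in germ cells, with 32.0 SPM (male) and 22.1 SPM (female) in somatic cells. In germ against somatic cells its direction was thus the opposite of that of Wdr5, although reads shared between the pair could not be assigned here. Its germ libraries did not differ beyond counting error (male over female 1.31, 0.903 to 1.97).

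Of 7 other H3K4 methyltransferase genes 3 reached 2-fold or more towards female germ cells and none towards male germ cells, where 24.2% and 31.7% of all genes were. None of the 7 passed limma in either comparison (1 had an unadjusted p under 0.05 in germ against somatic cells and 2 in the sex comparison). With sex as a term 1 of the 7 passed in germ against somatic cells, Prdm9 (limma adjusted p = 0.0111). Prdm9, the meiotic enzyme that places recombination hotspots, had 4.81 SPM (male) and 346 SPM (female) in germ cells, with 1.89 SPM (male) and 3.05 SPM (female) in somatic cells, 72.0-fold higher in female than in male germ cells (60.3 to 86.1). Smyd1, another of the 3, was low throughout, with 0.274 SPM (male, on 7 estimated fragments) and 5.27 SPM (female) in germ cells. Of the 6 H3K4 demethylase genes, Kdm1b and Kdm1a were male-higher in germ cells (6.63-fold, 6.29 to 6.99, and 3.14-fold, 3.04 to 3.25) and Kdm5a and Kdm5c female-higher (2.73-fold, 2.68 to 2.79, and 2.68-fold, 2.57 to 2.78). In somatic cells Kdm5a and Kdm5c were female-higher too (391 against 315 SPM, and 434 against 298). There the same held for Kdm1b (53.0 against 47.2 SPM) and Kdm1a (240 against 192), unlike in germ cells. The Y-linked Kdm5d had 43.7 SPM in male germ cells and a listed value of 0 in female ones, which put the male level at least 199.7-fold higher by the 95% counting interval (246-fold against a floor of 3 fragments per library). In germ against somatic cells none of the 6 passed limma (1 had an unadjusted p under 0.05), and with sex as a term Kdm1b did (limma adjusted p = 0.0199). Kdm5d was the only one of these 28 genes to pass limma in the sex comparison.

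**Figure D5:**
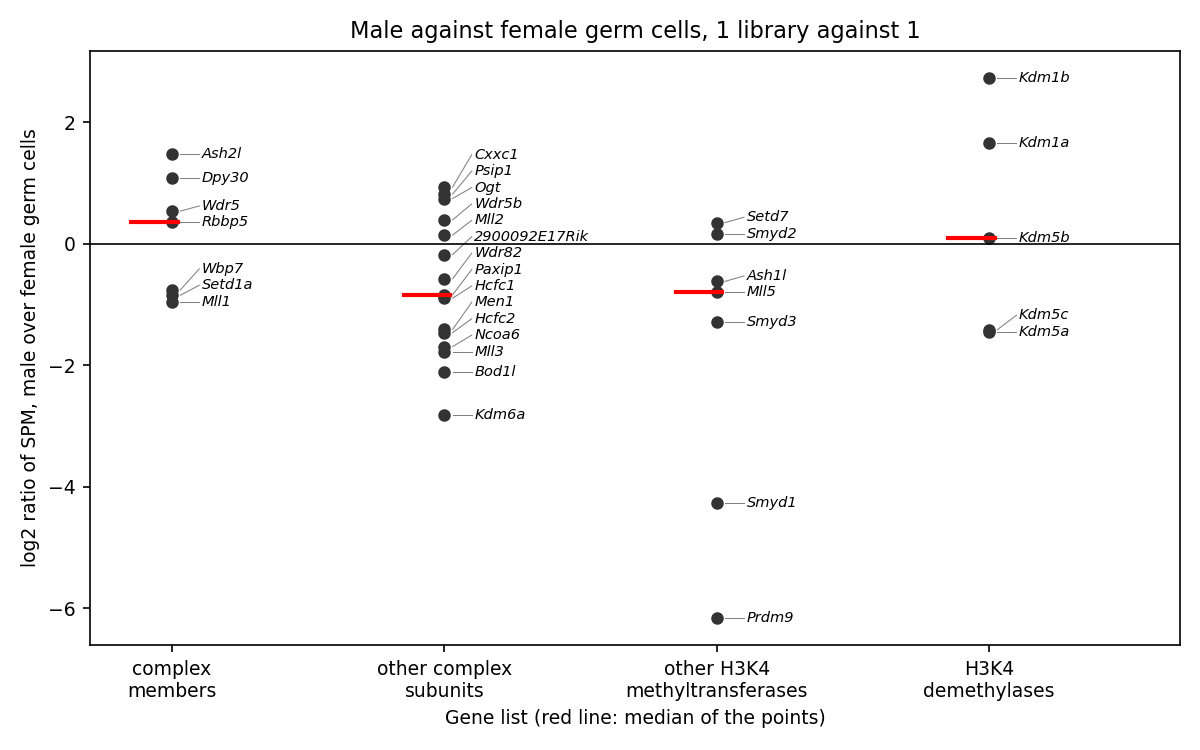
log2 ratio of SPM, male over female germ cells, for each gene of 4 lists, 1 library against 1, with the median of each list as a red line and Kdm5d, listed at 0 in the female library, left out. The medians are 0.35 for the 7 complex members, -0.84 for the 15 other subunits, -0.80 for the 7 other methyltransferases and 0.09 for 5 demethylases. The members' median is the value of Rbbp5, since the SET domain genes all lie below 0 and the WRAD genes all above.

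The gene with the nearest profile to each member was found by Euclidean distance over the 4 libraries between centred log2(SPM + 0.5) values, among 11927 other genes with at least 5 SPM on average. The nearest were Tmem69 to Mll1 (distance 0.05), Rbm19 to Wbp7 (0.06), Glcci1 to Setd1a (0.02), Fbxo31 to Ash2l (0.08), the chaperonin gene Cct2 to Wdr5 (0.09), the cyclin gene Ccnt1 to Rbbp5 (0.03) and the translation initiation factor gene Eif3l to Dpy30 (0.06). The nearest fellow member was much farther off in each case, at 0.59 (Rbbp5 and Dpy30, each the other's nearest) to 0.89 (Ash2l and Wdr5), with 535 to 1313 other genes nearer than it. With 4 libraries many genes share any given profile, so these distances are a description.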

How the data were processed

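RNA from 4 flow-sorted fractions was sequenced as strand-specific, ribosome-depleted paired-end libraries, per the labels' protocols. CASAVA 1.9, TopHat 1.2.0, edgeR and the mm9 build are named, without roles, per the submitters' processing notes. How reads were assigned to genes, with which annotation and with what use of strand, is not stated in those sources. The deposited values are a gene-level signal, although the file headers call the column counts: low values cluster at a spacing of 4.09 (male germ, female somatic), 6.01 (female germ) or 6.115 (male somatic), and totals lie between 99.3 and 107.5 M. What the authors scaled by is not stated there either. A single spacing was read as 1 fragment. Only 39.9% to 50.9% of low values (up to 60) lay within 0.5 of a multiple, so fragment numbers are estimates.

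Of 20373 rows, 74 repeats were dropped. Totals were adjusted by TMM (trimmed mean of M values), with 1.07, 0.956, 0.945 and 1.03 (male germ, female germ, male somatic, female somatic). Tests were made with limma 3.58.1 (R 4.3.3, trended variance, p adjusted by Benjamini-Hochberg) on log2(SPM + 0.5), a scale that understates changes of low genes. They covered the 14148 genes that 2 or more libraries showed at 1 SPM or above, and the code was tested on simulated data. Ratios of 1 library to 1 carry an exact conditional binomial interval. PCR copies cannot be told from separate molecules. Alternatives covered scaling, pseudocount (0.1 and 1), filter, trend, repeated rows, model terms and leaving out each library. The members, the gene lists and the tests were chosen with earlier results of these data known. Named genes were the members, the 6 genes with the largest germ cell sex difference among other subunits and among other H3K4 enzymes, and the nearest profile to each member. Kdm5d, which has no finite ratio, and the remaining genes of these lists that are named with values were added after their values were seen.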

Additional observations from a re-analysis of the deposited data

Results flagged for a closer look

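The 3 genes Mll1, Wbp7 and Dpy30 are listed because their differences ran in opposite directions in 2 groups, each beyond counting error, with 1 library per group and no test of the difference. Such a pattern is common: 48.4% of all genes tested had opposite sex differences in germ and somatic cells, counted at any size. For opposite germ-somatic differences in the 2 sexes the share of all genes was not counted. For Mll1 the log2 ratio of male to female was -0.96 in germ cells and 0.39 in somatic cells, a gap of -1.35, and by the same gap germ cells were lower than somatic cells in males and higher in females. For Wbp7 the values were -0.76 and 0.31, a gap of -1.08. For Dpy30 they were 1.08 and -0.20, a gap of 1.28, with germ cells above somatic cells in males and below them in females.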

How the results depend on the processing

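The number of members passing limma as higher in germ cells was 0 and became 1 with sex as a term; without 1 library it lay between 0 and 2. The number passing as lower, and the numbers passing in the sex comparison, stayed at 0 in every fit run; without 1 library the sex comparison had no residual degree of freedom and was not fitted. With no library left out, no member changed the sign of its limma estimate, whereas with 1 library left out the estimate of Mll1 ran from -0.46 (female germ left out) to 0.49 and was also below 0 (-0.18) when female somatic cells were left out, and that of Dpy30 ran from -0.40 (male germ left out) to 0.66. Under upper-quartile scaling 4 members were at least 1.5-fold higher in male germ cells and 1 in female germ cells, in place of 2 and 3. The 1 member at least 1.5-fold lower in male germ than in male somatic cells, Mll1, became 0 under library totals, upper-quartile and median-of-ratios scaling, and with library totals 1 member was at least 1.5-fold lower in female germ than in female somatic cells, in place of 0. The ratio of Wdr5 between male and female somatic cells reversed to 0.971 with library totals. The cause of these changes was not tested. The fit with sex as a term is the one that pairs libraries, by sex; the labels give no replicate numbers to pair by. By estimated fragments (at least 315 per gene and library) counting error left the somatic pairs of Setd1a and Rbbp5 unseparated, and with 1 library per group the spread between animals was not measured.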
